A study of Mus musculus with 2 samples.

Results

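The mitochondrial ribosomal protein genes were taken as the annotated genes of known status whose symbol starts with Mrpl or Mrps, followed by a number and at most 1 letter. This rule found 78 genes, all 78 such genes of the GENCODE M21 annotation, among 14514 annotated nuclear genes with a read in at least 1 library. Reads of all transcript classes were summed for each gene. By their established roles, 51 of the 78 encode proteins of the large mitoribosomal subunit, 26 encode proteins of the small subunit, and 1, Mrps36, carries the name but encodes a component of the 2-oxoglutarate dehydrogenase complex. The mitoribosome is the ribosome of the mitochondrial matrix, and it translates the few mRNAs of the mitochondrial genome, all of which encode core subunits of the respiratory chain and ATP synthase. Its ribosomal RNAs are transcribed in the mitochondrion, whereas all of its proteins are encoded in the nucleus, made in the cytosol and imported. Some of these proteins have a bacterial counterpart (bacterial-type below) and others were added during the evolution of mitochondria (mitochondria-specific), and defects in several of them cause cardiomyopathy in humans.

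The study sequenced long cDNA reads from the heart of male B6CASTF1/J mice, F1 hybrids of a B6 parent and the wild-derived CAST strain, at an age of 2 months. It had 1 group of 2 libraries, replicate 1 and replicate 2, each made from 2 µg of RNA, with no treatment and no second genotype. The labels list the libraries as separate biosamples and number them as biological replicates. However, they give the same donor identifier for both and, in another field, the same animal, so the spread between the libraries may be technical. With 1 group of 2 libraries no replicated test existed: every p-value below compares the reads of these 2 libraries, covers counting error only and says nothing about a condition.

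Replicate 1 held 454069 reads and replicate 2 held 661958, of which 430251 and 629896 fell on annotated nuclear genes. Levels are given as reads per 1000000 nuclear reads (CPM). A long read is counted once whatever the length of its transcript, so CPM was not divided by length; whether some reads are amplified copies of 1 molecule was not tested. The 6 genes listed as ventricular cardiomyocyte markers, all read, summed to 48000 and 39899 CPM, of which Myh6 alone gave 36490 and 27652. Myh6 was lower in replicate 2, while the others of that list were higher there. The 4 atrial markers, all read, summed to 3277 and 3386 CPM. Which chambers the tissue held was not tested. The brown fat markers summed to 67.4 and 93.7 CPM, of which Cidea alone gave 67.4 and 82.6. Ucp1 had 0 and 6 reads, Elovl3 had 0 and 1, and Dio2 had 0 in both libraries. The 4 skeletal muscle markers summed to 428 and 332 CPM, nearly all from Acta1, with the myosins Myh4 and Myh2 at 0. Erythroid markers, all 5 of 5 read, summed to 13799 CPM in replicate 1 and 3663 in replicate 2, a 3.77-fold difference, so results that compare the libraries are also given with these genes taken out of the total. In bulk tissue, fewer cells of a type and less RNA per cell cannot be told apart.

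All 78 genes were read in both libraries, and all 78 still had at least 5 reads in each, against 10690 of 22015 annotated protein-coding genes (48.6%) read in both at all. Together they took 3625 reads in replicate 1 and 5771 in replicate 2, or 0.843% and 0.916% of the nuclear reads. The median level was 84.8 CPM, with an interquartile range from 58.8 to 138 and extremes of 23.6 and 765. All 78 lay above the median of nuclear genes read in both libraries, which was 20.0 CPM. Their most-read known transcripts were short, with a median of 1302 bases against 2728 for protein-coding genes, and for the 45 genes whose transcript measured 500 to 1500 bases the median was 91.0 CPM, against 18.4 over all genes in that length range. Across the 78 genes, log2 CPM and transcript length had a Pearson correlation of −0.13, a description over genes that share 2 libraries.

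**Figure D1:**
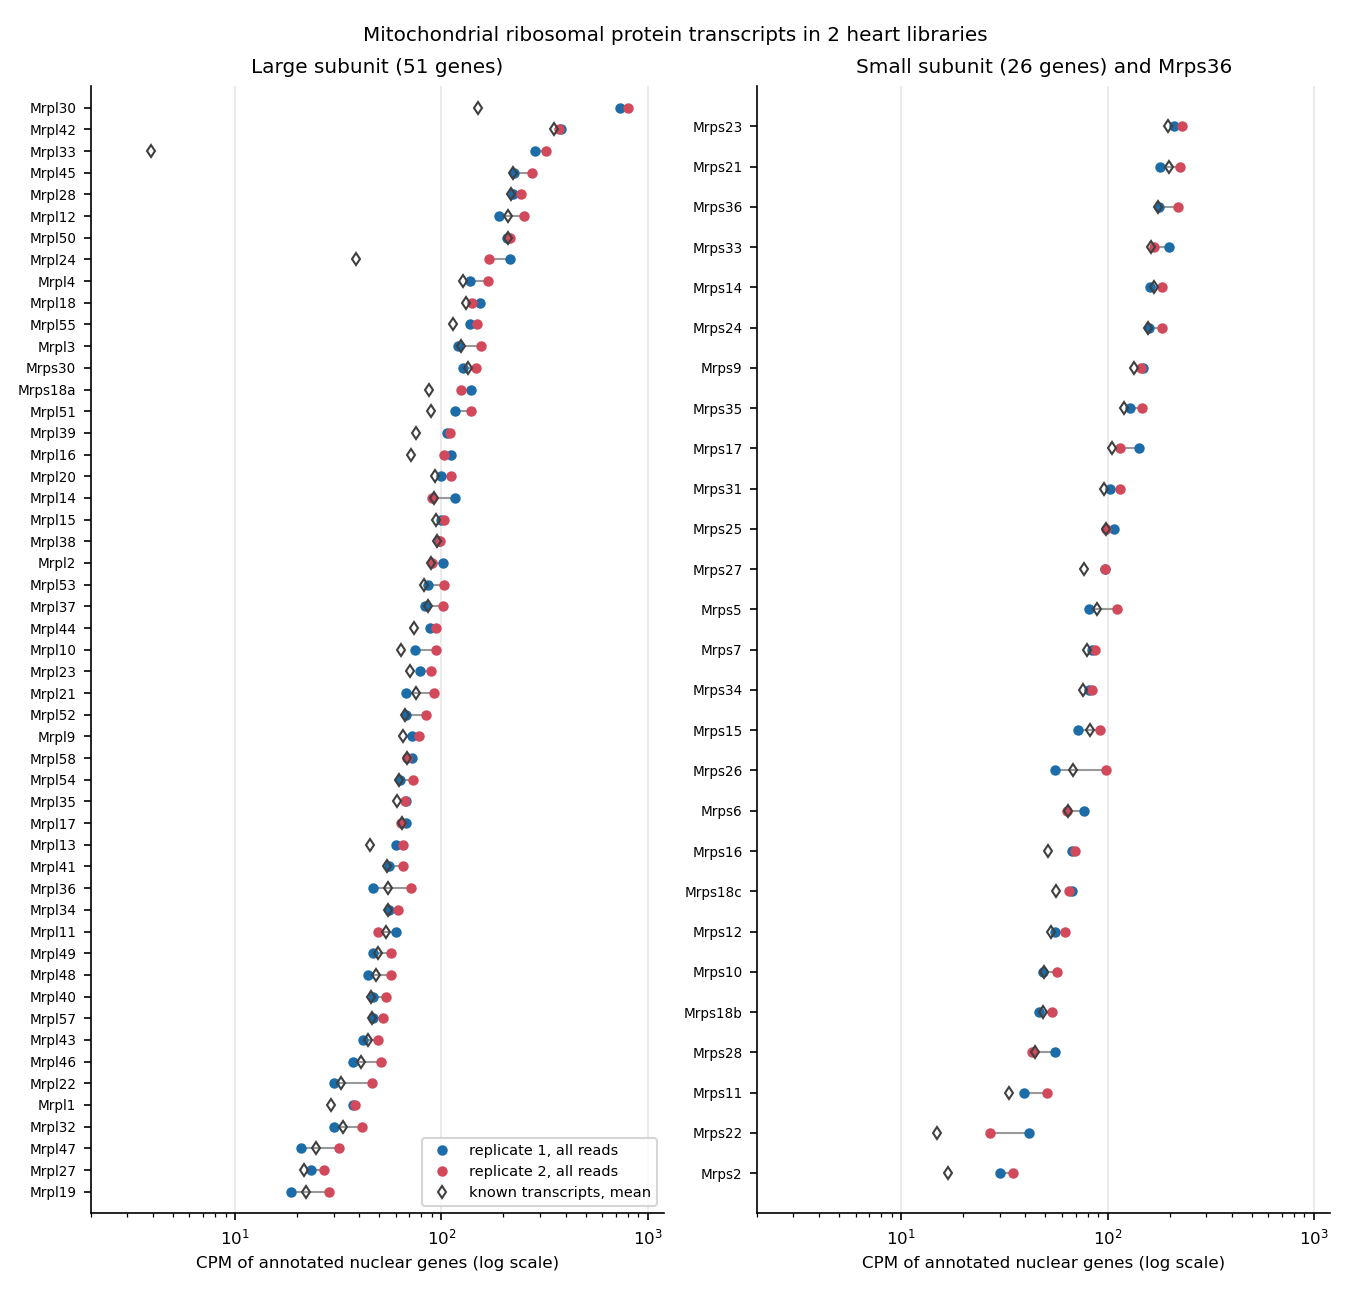
Level of each mitochondrial ribosomal protein gene in CPM (horizontal log axis), with replicate 1 in blue, replicate 2 in red and an open diamond for the mean of known-transcript reads alone. The left panel holds the 51 large-subunit genes and the right panel the 26 small-subunit genes and Mrps36. The diamonds of Mrpl30, Mrpl33 and Mrpl24 lie far left of their points, while those of most other genes lie on or near them.

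Transcripts of 3 large-subunit genes departed from the annotation in most of their reads, and their sequences are shown first because the gene levels depend on them. Mrpl33 (chromosome 5, plus strand, 31596935 to 31664384 on mm10) encodes a small bacterial-type protein of the large subunit. Its annotated transcript Mrpl33-201 splices an exon of 19 bases (chr5:31614603-31614621) between the first exon and the third, and this transcript had 0 reads in both libraries. A model with a splice site absent from the annotation (class NNC, not in catalogue) took 116 of 122 Mrpl33 reads (95.1%) in replicate 1 and 196 of 202 (97.03%) in replicate 2. That model had 3 exons, its first exon ran from 31613939 to 31614030, 8 bases beyond the annotated donor at 31614022, and it skipped the 19-base exon. The exon joins of both are shown on the gene strand, with the 19-base exon of the annotation and the 8-base extension of the model in capitals.
Mrpl33-201 (annotated, GENCODE M21): ctcttTTGCCAAGAGCAAGTCAAAaacta
Mrpl33 heart model: cgctgtctcttGTAAGTCGaactatcctgg
The 6 bases after the annotated donor were GTAAGT, which the model holds inside its exon, and the 6 bases after the extension were GTCTGA. Before the third exon, the annotated transcript has 41 coding bases and the model 30, a difference of 11, which is not a multiple of a codon. Read from the annotated start codon, the annotated transcript gave 65 codons before a stop and the model 42. The deposited models give coordinates and not read bases, so whether the reads held the bases of the 19-base exon was not tested.

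Mrpl33 was 1 of 4 genes among 1747 with at least 100 reads that had at least 90% of their reads in NNC models; the others were Cct6a, Capn2 and Idh3g. Sorting genes by their shortest exons, a comparison chosen after these values were seen, gave 23 genes whose protein-coding transcripts all hold an internal exon of under 25 bases. Their median NNC share was 6.88%, against 1.96% for the other 1622 genes. Of the 23, 3 (Mrpl33, Capn2 and Idh3g) reached 90% and 5 reached 50%, against 0 and 12 of the 1622. Another 102 genes, Cct6a (95.7% NNC) among them, were in neither set because they have no protein-coding transcript of at least 3 exons in the annotation. The grouping was prompted by these same genes and gives no independent support. The shortest internal exon, taken from the protein-coding transcript where it was longest, measured 19 bases in Mrpl33 and 12 bases in both Capn2 and Idh3g. Genes of the set with shorter ones had mostly low NNC shares: Mybpc3 (3 bases) 7.47%, Sept7 (5 bases) 2.20% and Tnnt2 (11 bases) 6.75%, but Pitpna (11 bases) 80.4%. The part of exon length in the Mrpl33 model was not tested.

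Mrpl30 (chr1:37890477-37898535, plus strand), a bacterial-type protein of the large subunit, had the highest level of all 78 genes, with 315 and 503 reads and 765 ± 47.0 CPM (SD, n = 2). Most of these reads lay in a single unspliced block at the 3′ end of the gene. In replicate 1 it was a model of 278 bases (37898061 to 37898338) with 251 reads, classed as an incomplete splice match (ISM, a part of a known transcript). In replicate 2 it was a model of 174 bases (37898165 to 37898338) with 400 reads, classed as genomic (overlapping the gene without matching its splice structure). Both took nearly the same share of the gene, 79.7% and 79.5%, and both ended at the annotated 3′ end of transcript Mrpl30-207. The start of the replicate 2 model, 37898165, is also an annotated site, the 3′ end of Mrpl30-206. Where the reads themselves began and ended was not tested. The 30 bases up to 37898338 are shown because they hold a common variant of the polyadenylation signal, in capitals.
Mrpl30 (chr1:37898309-37898338, plus strand): ttctcATTAAAgtgtatgttcatccagtca
The 30 bases downstream held 5 A. With known transcripts alone, Mrpl30 had 62 and 98 reads, 150 CPM, and ranked 12 of 78.

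Mrpl24 (chr3:87919506-87923672, plus strand), also a bacterial-type protein of the large subunit, had 93 and 107 reads, of which 75 and 81 sat in a genomic model of 1 base at position 87923316. That position is the annotated 3′ end of 1 of 12 transcripts of Rrnad1, the gene on the opposite strand. Rrnad1 itself had 1 and 4 reads. A model of 1 base does not give the extent of its reads, so where they began and ended was not known. The 30 bases that follow 87923316 on the Mrpl24 strand are shown with TTTATT in capitals, the reverse complement of the polyadenylation signal AATAAA.
Mrpl24 (chr3:87923317-87923346, plus strand): cgaagattcaagaaagTTTATTggtattga
The sources used here do not say how reads were given a strand, and from which of the 2 genes these reads came was not tested. With known transcripts alone Mrpl24 had 16 and 25 reads and ranked 68 of 78, whereas it ranked 11 with all classes.

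The 30 bacterial-type genes of the large subunit had a median of 84.0 CPM. Besides Mrpl30, Mrpl33 (122 and 202 reads, 302 ± 26.3 CPM) and Mrpl24 (193 ± 32.7), the highest were Mrpl28 and Mrpl12. Mrpl28 had 96 and 154 reads and 234 ± 15.1 CPM. Mrpl12, the stalk protein that also binds the mitochondrial RNA polymerase, had 82 and 159 reads and 222 ± 43.7 CPM. Mrpl10, which anchors the Mrpl12 stalk to the ribosome, was lower, with 32 and 59 reads and 84.0 ± 13.6 CPM, and the ranges of the genes over the libraries did not overlap. Mrpl3, a protein near the peptidyl transferase centre in which human variants cause cardiomyopathy, had 52 and 98 reads and 138 ± 24.6 CPM.

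Of the 8 lowest genes of the whole group, 6 were bacterial-type proteins of the large subunit. Mrpl19 had the fewest reads, 8 and 18, and 23.6 ± 7.06 CPM. Mrpl27, whose bacterial counterpart reaches the peptidyl transferase centre, had 10 and 17 reads and 25.1 ± 2.65 CPM. Mrpl47, the counterpart of a bacterial protein near the exit tunnel, had 9 and 20 reads and 26.3 ± 7.66 CPM. Mrpl32, Mrpl1 of the mobile L1 stalk and Mrpl22 of the tunnel wall lay between 35.7 and 38.1 CPM. Neighbours in this order overlapped in their library values, and each of the 6 lay below the lower quartile of the group.

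The 21 mitochondria-specific genes of the large subunit had a median of 91.0 CPM. Mrpl42 was the highest of all 78 genes by known transcripts (350 CPM), with 163 and 235 reads and 376 ± 4.08 CPM over all classes. Mrpl45, which lies at the exit tunnel and helps to hold the ribosome at the inner membrane, had 97 and 174 reads and 251 ± 35.9 CPM. Mrpl50 had 90 and 136 reads and 213 ± 4.76 CPM, close to Mrpl12 and within its spread. Mrpl44, which has the fold of an RNase III enzyme and in which human variants cause cardiomyopathy, had 38 and 59 reads and 91.0 ± 3.78 CPM. Mrps30, named as a small-subunit protein but located in the large subunit, had 55 and 93 reads and 138 ± 14.01 CPM.

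The 26 small-subunit genes had a median of 84.1 CPM, against 84.0 for the 51 large-subunit genes. By known transcripts alone the medians were 78.3 and 68.2 CPM. The highest small-subunit genes were Mrps23, mitochondria-specific, with 90 and 144 reads and 219 ± 13.7 CPM, and Mrps21, bacterial-type, with 77 and 142 reads and 202 ± 32.9 CPM, which overlapped in range. Mrps33, mitochondria-specific, followed with 85 and 106 reads and 183 ± 20.7 CPM. The lowest were Mrps2, bacterial-type, with 13 and 22 reads and 32.6 ± 3.33 CPM, and Mrps22, mitochondria-specific, in which human variants cause cardiomyopathy, with 18 and 17 reads and 34.4 ± 10.5 CPM. Over both subunits, the 46 bacterial-type genes had a median of 83.0 CPM and the 31 mitochondria-specific genes 92.6 CPM.

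The paralogs Mrps18a, Mrps18b and Mrps18c occupy different places: Mrps18a is a large-subunit protein, and the other two belong to the small subunit. Mrps18a had 60 and 78 reads and 132 ± 11.05 CPM. Mrps18b had 20 and 34 reads and 50.2 ± 5.30 CPM, and Mrps18c had 29 and 41 reads and 66.2 ± 1.63 CPM. Mrps18a was the highest of the 3 in both libraries. Mrps36, the 2-oxoglutarate dehydrogenase component, had 76 and 138 reads and 198 ± 30.01 CPM, a level within the range of the mitoribosomal genes.

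The genes agreed closely between the libraries. No gene of the 78 passed the exact two-sided binomial test after Benjamini-Hochberg adjustment over the 8086 nuclear genes with at least 10 summed reads, of which 56 (0.693%) passed and 26 (0.322%) also differed at least 2-fold. At an unadjusted p under 0.05 there were 2 of 78 (2.56%), against 7.11% of all genes tested, so neither share was above the background. Mrps26, a mitochondria-specific small-subunit protein, had 24 and 62 reads, or 55.8 and 98.4 CPM, a 1.76-fold higher level in replicate 2 (exact binomial p = 0.0205, adjusted p = 0.536). Mrpl12 had 191 and 252 CPM, 1.32-fold higher in replicate 2 (exact binomial p = 0.0418, adjusted p = 0.683). Of the 78 genes, 75 (96.2%) lay within 1.5-fold between the libraries, against 85.5% of the 5001 genes with summed reads in the same range, and all 78 lay within 2-fold. Depth within that range was not matched: 67 of the 78 had at least 50 summed reads, against 3305 of the 8086 genes tested. Counting error is smaller at more reads, and the part of depth in the closer agreement was not tested.

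**Figure D2:**
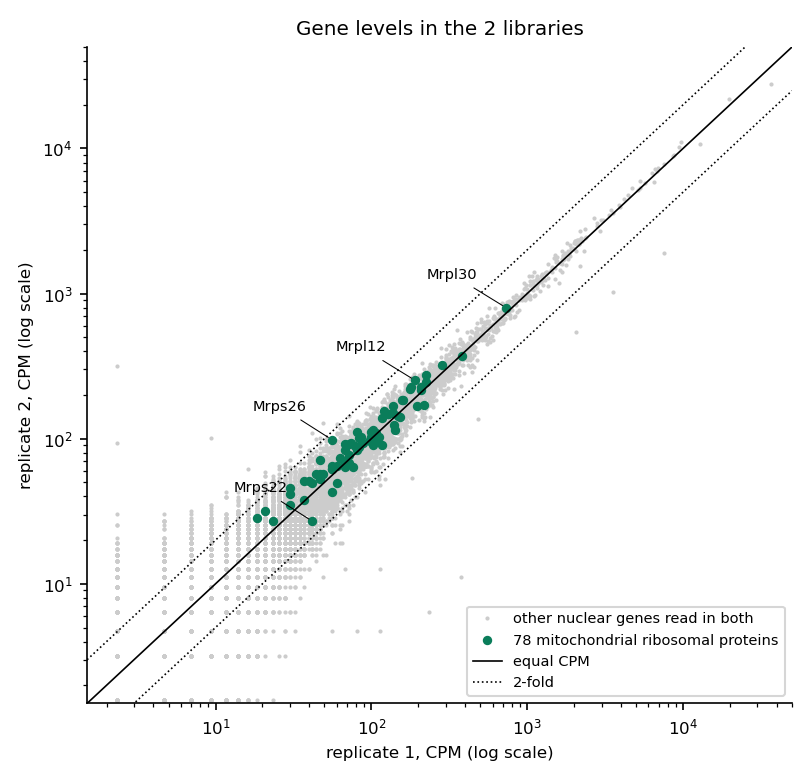
Level of each gene in replicate 1 (horizontal) and replicate 2 (vertical), both in CPM on log axes, with all genes in grey and the 78 mitochondrial ribosomal protein genes in green. The solid line marks equal levels and the dashed lines a 2-fold difference; all green points lie between the dashed lines, and Mrps26 and Mrpl12 lie toward the replicate 2 side.

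The small differences leaned one way. Replicate 1 was the lower library for 58 of the 78 genes (74.4%), against 49% of all genes tested, and the median log2 ratio of replicate 1 over replicate 2 was −0.16, against 0.01 over all genes. All member reads together were 1.087-fold higher in replicate 2, with a 95% counting interval from 1.043 to 1.134. The direction differed by transcript length over all genes, though not in one order: replicate 1 was lower for 46.3% of the other genes under 500 bases, 59.0% of those of 500 to 1500 bases, 55.3% of those above 1500 and up to 3000 bases and 38.8% of those over 3000 bases. Among the mitochondrial ribosomal protein genes it was lower for 2 of 2, 31 of 45, 13 of 15 and 12 of 16 in these classes. The part of transcript length in the lean was not tested. With the erythroid markers taken out of the total, 57 of 78 were lower in replicate 1, against 47.6% of all genes tested. The log2 ratio of all member reads was then −0.11, and still 0 of 78 passed the binomial test. Taking the erythroid markers out of the total rescales every gene alike, so it cannot show the part of erythroid content in the lean. With genomic models left out, the log2 ratio of all member reads was −0.03 instead of −0.12. That setting drops the 400 reads of the Mrpl30 block from replicate 2 and keeps its 251 reads in replicate 1, which have another class. The median log2 ratio over the 78 genes was −0.16 there too. In that setting 57 of 78 were lower in replicate 1, against 49.8% of all genes tested.

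Most reads of these genes matched known transcripts. The known share was 77.7% in replicate 1 and 78.7% in replicate 2, 78.2 ± 0.766% (SD, n = 2), against 75.6% over all nuclear genes. Counted gene by gene, the median known share was 90.6%, against 78.3% for the 8086 genes with at least 10 reads, and 42 of 78 genes had at least 90% of their reads in known transcripts, against 27.7% of those genes. Leaving out Mrpl30, Mrpl24 and Mrpl33, a choice made after the values were seen, gave a known share of 88.7%, with 5.03% in incomplete splice matches, 2.67% in NNC models, 1.96% in new combinations of known splice sites (NIC, in catalogue) and 1.61% in genomic models. With those 3 genes the ISM share was 11.7% in replicate 1 and 3.88% in replicate 2, and the genomic share 3.53% and 9.63%, in opposite directions. The Mrpl30 block, which fell in different classes in the 2 libraries, held 251 of the 423 ISM reads of replicate 1 and 400 of the 556 genomic reads of replicate 2.

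**Figure D3:**
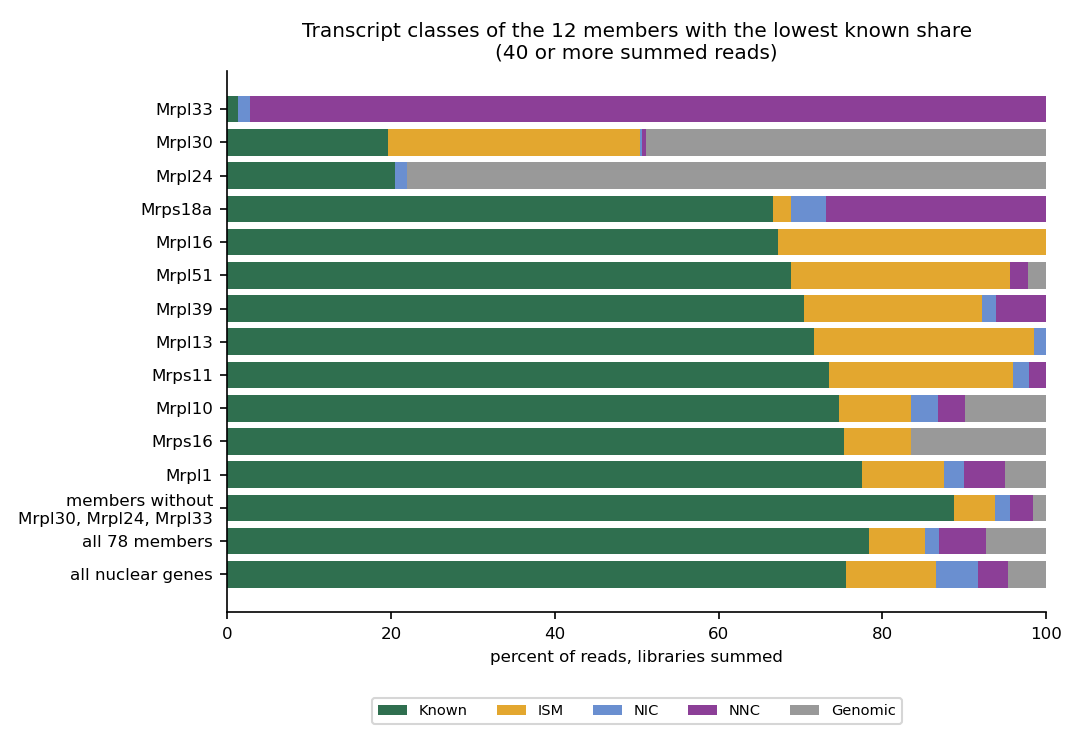
Share of reads in each transcript class (percent, both libraries summed) for the 12 genes with at least 40 reads and the lowest known share, with summary bars for all 78 genes, for these without Mrpl30, Mrpl24 and Mrpl33, and for all nuclear genes. The known share is 1.23% for Mrpl33, 19.6% for Mrpl30 and 20.5% for Mrpl24, and at least 66.7% for the other genes shown.

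After these 3 genes, the lowest known shares among genes with at least 40 reads were 66.7% for Mrps18a, 67.3% for Mrpl16, 68.8% for Mrpl51, 70.4% for Mrpl39 and 71.6% for Mrpl13. All of them encode large-subunit proteins, as do 51 of the 78 genes. The minimum left out the small-subunit genes Mrps22 (8 and 7 known of 18 and 17 reads) and Mrps2 (9 and 8 known of 13 and 22). In Mrps18a (chromosome 17, plus strand), 15 of 60 reads (25%) and 19 of 78 reads (24.4%) came from models that started inside the third annotated intron and joined the fourth exon at 46125290. They had 5 intron chains with 3 different donors, and the leading one had 9 and 12 reads. In Mrpl39 a model that lacked the 5′ exons (an ISM suffix) took 13 of 46 and 11 of 69 reads. In Mrpl16 and Mrpl51 unspliced models held 18 and 19 reads and 12 and 28 reads, and in Mrpl13 they held 6 and 11.

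The remaining spliced models with at least 10 reads added little to most genes. Mrps22 was the exception: a suffix model lacking its 5′ exons took 9 of 18 reads (50%) and 10 of 17 (58.8%), more than its known transcripts in these few reads, and its known share was 42.9%. Mrpl55 had a model with a new join of known splice sites in 4 and 13 reads, Mrps17 one in 3 and 8 reads, and Mrps27 a NIC model in 3 and 9 reads. A suffix model of Mrpl42 had 7 and 8 reads. Mrpl45 had an NNC model in 4 and 6 reads. Over all 78 genes there were 273 distinct intron chains outside the known class, of which 57 were read in both libraries. Those 57 held 249 of 337 reads in replicate 1 and 371 of 535 in replicate 2, while 105 of the 138 NNC chains rested on 1 read.

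Unspliced models held 473 reads (13.05%) of the group in replicate 1 and 692 (11.99%) in replicate 2. Outside Mrpl30 and Mrpl24 they held 147 (4.57%) and 211 (4.09%). Most unspliced models, Mrpl30 included, ended where an annotated transcript ends, 41 of 50 in replicate 1 and 47 of 58 in replicate 2. They held 383 and 587 reads, of which the Mrpl30 block gave 251 and 400. Some models measured 1 base, such as that of Mrps16 at the annotated end of Mrps16-202, so model ends need not be read ends. Whether model ends were set to annotated sites was not tested, so these counts do not show where reads ended. Mrps2, with few reads in all, had 4 of 13 and 14 of 22 reads in unspliced models.

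Within the known class, 1 transcript led in most of these genes: 36 of 78 had 1 known transcript read, and 60 of 78 had a leading transcript with at least 90% of the known reads in both libraries. Over the 60 genes with at least 20 known reads in each library, the most-read transcript took a median of 99.1% of the known reads, against 99.5% over 2490 genes, and 52 of the 60 (86.7%) reached 90%, against 78.8%. Protein-coding transcripts held 98.7% of their known reads, against 97.9% for protein-coding genes, and retained-intron transcripts 0.844% against 1.59%. None of the 34 genes that could be tested passed the two-sided Fisher exact test of a difference in isoform share between the libraries, against 1 of 1356 genes (0.0737%) after Benjamini-Hochberg adjustment. At an unadjusted p under 0.05 the numbers were 0 of 34 and 41 of 1356 (3.02%), and the lowest p of the 34, a Fisher exact p, was 0.171 for Mrps17.

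The 8 genes with at least 40 known reads and the lowest share for 1 transcript were Mrpl55, Mrps10, Mrps17, Mrpl24, Mrpl30, Mrps36, Mrps24 and Mrps12. In 3 of them, the 2 leading transcripts differed at a tandem acceptor, where splicing joins the same donor to 1 of 2 acceptors a few bases apart. The exon joins of each pair are shown on the gene strand, from GENCODE M21 on mm10, with the extra bases in capitals.
Mrps10-203 (chr17:47372479-47372588): gtggcctcgcgctCAGtgccagtatgaag
Mrps10-204 (chr17:47372479-47372588): gtggcctcgcgcttgccagtatgaag
Mrpl55-201 (chr11:59202647-59204187): ctcccacgctaagCAGggcctacgtcggg
Mrpl55-203 (chr11:59202647-59204187): ctcccacgctaagggcctacgtcggg
Mrps36-203 (chr13:100739184-100741179, minus strand): ctaaactcagtgCCTCAGaagctttggggt
Mrps36-202 (chr13:100739184-100741179, minus strand): ctaaactcagtgaagctttggggt
In Mrps10, a bacterial-type small-subunit protein, the form with CAG has 603 coding bases and the form without has 600. The CAG form took 13 of 19 known reads (68.4%) in replicate 1 and 15 of 34 (44.1%) in replicate 2, and the shorter form 6 and 19. The exact 95% intervals of these shares, 43.4% to 87.4% and 27.2% to 62.1%, overlapped. In Mrpl55 the extra CAG lies before the start codon, and both forms have 381 coding bases. Mrpl55-201 took 26 of 49 reads (53.1%) and 39 of 71 (54.9%), and Mrpl55-203 took 14 (28.6%) and 25 (35.2%). In Mrps36 the 6 extra bases lengthen the coding sequence from 300 to 306 bases. The longer form took 57 of 65 reads (87.7%) and 102 of 125 (81.6%), and the shorter form 8 (12.3%) and 14 (11.2%), so both forms of all 3 genes were read in both libraries.

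In the other genes with divided use, most of the forms read differed outside the coding sequence or retained an intron. Mrps17, a bacterial-type small-subunit protein, had 7 known transcripts, each with 360 coding bases, and Mrps17-201 took 27 of 52 reads (51.9%) and 37 of 56 (66.1%). In Mrps24, bacterial-type, the leading transcript took 53 of 61 reads and 90 of 109, and retained-intron transcripts most of the rest. Mrps12-201, of the bacterial-type protein of the decoding centre, took 18 of 22 and 31 of 35 reads, and the second transcript has the same 417 coding bases. Mrpl30-201 took 50 of 62 and 80 of 98 known reads, and the form Mrpl30-206, with 384 coding bases in place of 480, took 4 and 3. Mrpl24-202 took 12 of 16 and 17 of 25.

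**Figure D4:**
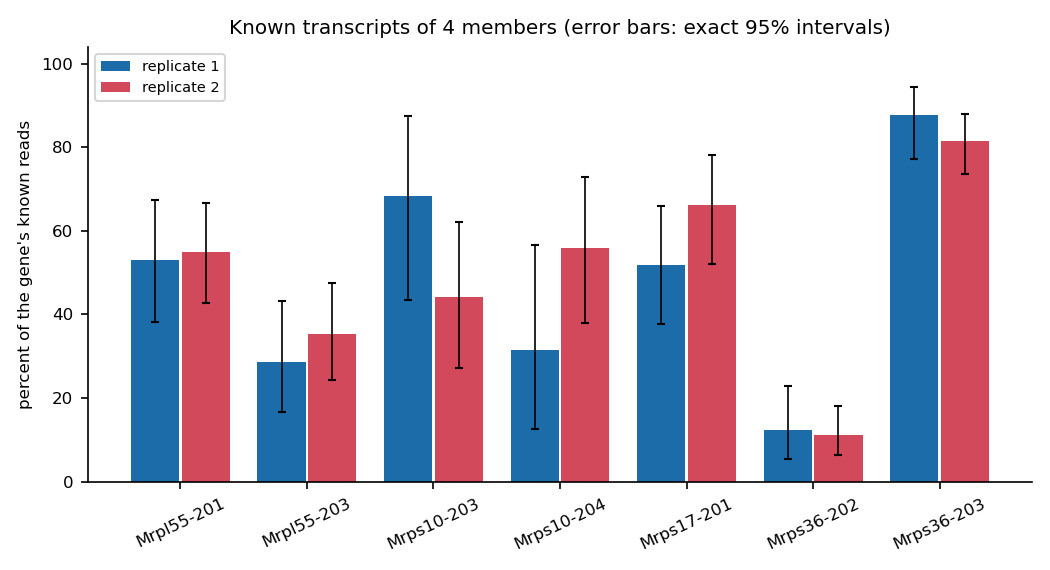
Share of known-transcript reads (percent, vertical) taken by named transcripts of Mrpl55, Mrps10, Mrps17 and Mrps36 in each library, with exact 95% Clopper-Pearson intervals that cover counting error only. The intervals of the 2 libraries overlap for every transcript shown.

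Lists of other genes of the same pathway had lower medians than the ribosomal proteins, with 1 exception. The 5 mitoribosomal proteins with other names had a median of 115 CPM, led by Gadd45gip1 (162 CPM), Ptcd3 (116) and Aurkaip1 (115). The 15 mitochondrial translation factors had a median of 45.8 CPM, led by Lrpprc (255), which stabilises mitochondrial mRNAs, and the elongation factors Gfm1 (221) and Tufm (185). The 23 assembly factors of the mitoribosome had a median of 37.7 CPM and a maximum of 71.8 (Mtg2), followed by Nsun4 (70.9) and Rbfa (66.6). No gene of these 3 lists passed the binomial test between libraries, of 5, 15 and 18 tested, and 2, 6 and 8 were lower in replicate 1. The mitochondrial ribosomal RNAs, which were left out of the CPM total with all mitochondrial genes, had 17 and 34 reads for mt-Rnr1 and 67 and 110 for mt-Rnr2.

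The proteins of the cytosolic ribosome and of the respiratory chain were higher. The 80 annotated cytosolic ribosomal protein genes, 78 of them read, had a median of 162 CPM and summed to 16083 ± 1199 CPM, against 8794 ± 521 for the 78 mitochondrial genes. Rpl41 (833 CPM) and Rplp0 (713 CPM) were among the highest of them. The 85 nuclear genes of oxidative phosphorylation, 82 of them read, had a median of 1099 CPM and summed to 127270 ± 4154 CPM, led by Atp5b (10386), Cox4i1 (8893) and Atp5a1 (7121). The lower level in replicate 1 was shared by these 2 lists: 62 of 76 cytosolic ribosomal protein genes tested and 60 of 80 oxidative phosphorylation genes tested were lower there, against 49% of all genes. Of these, Rpl4, Atp5b and Uqcrc2 passed the test, all lower in replicate 1. The 3 lists of the mitoribosome and its pathway did not share it: 2 of 5, 6 of 15 and 8 of 18 were lower there. Their median log2 ratios were 0.097, 0.065 and 0.022. These lists are small, transcript lengths were not compared between lists, and the part of length in the contrast was not tested.

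**Figure D5:**
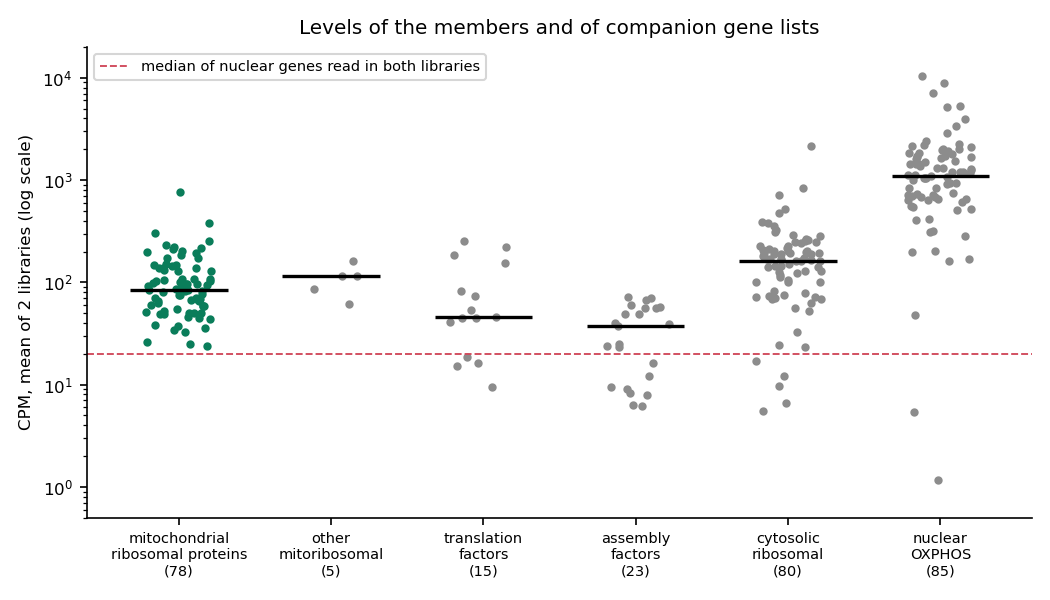
Mean level in CPM (log axis) of each gene in the mitochondrial ribosomal protein group and in 5 related lists, with a black bar at each median and a dashed line at 20.0 CPM, the median of nuclear genes read in both libraries. The medians run from 37.7 CPM for assembly factors over 84.8 for the mitochondrial ribosomal proteins to 1099 for oxidative phosphorylation; 5 genes without reads are not drawn but count in the medians.

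The genes lay on 17 chromosomes, with 11 on chromosome 11 and 8 on chromosome 17. A protein-coding gene on the opposite strand started within 1000 bases, pointing away, for 22 of 78 (28.2%), against 1100 of the 9777 protein-coding genes read in both libraries that had a read of a known transcript (11.3%, the members included). Starts were those of the most-read known transcript, or of the gene for partners with no such read. Mrps11 of the small subunit and Mrpl46 of the large subunit formed such a pair on chromosome 7, with starts at 78783119 and 78783089, 30 bases apart. Mrps11 had 17 and 32 reads and Mrpl46 had 16 and 32, nearly equal in both libraries. The 29 bases between their starts are shown on the Mrps11 strand, from the RefSeq promoter table (GRCm38.p6).
Mrps11 and Mrpl46 (chr7:78783090-78783118): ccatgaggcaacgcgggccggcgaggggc
The partners had varied functions. Among them, named after their values were seen, were Fau (59 bases from Mrpl49), which encodes a cytosolic ribosomal protein, Tcp1 (37 bases from Mrpl18), a chaperonin subunit, and Psma2 (75 bases from Mrpl32), a proteasome subunit. Sars2 (182 bases from Mrps12), the mitochondrial seryl-tRNA synthetase, and Twnk (116 bases from Mrpl43), the mitochondrial DNA helicase, act in mitochondria. Of the 22 partners, 12 were over 2-fold lower than the mitochondrial ribosomal protein gene in CPM and 2 over 2-fold higher. The same count was not made for the partners of other genes. All 78 genes lay above the median of nuclear genes read in both libraries, whereas a partner needed no read, so this count describes these pairs only. Mitd1, 66 bases from Mrpl30, had 1 and 6 reads, and Helq, 29 bases from Mrps18c, had 1 and 2.

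RefSeq promoter windows (GRCm38.p6), 250 bases before to 50 bases after each start, were matched by symbol for 69 of the 78 genes. Each of 11 motifs was searched on both strands, and shares are set beside those of 8362 other protein-coding genes read in both libraries and of all 27025 promoters. CCGGAAG, the core of ETS family sites, was present in 25 of 69 (36.2%), against 18.8% and 9.12%. The motif of NRF1, a regulator of nuclear genes for mitochondrial proteins, searched as GCGCA, any base and GCGC, was present in 13 (18.8%), against 11.1% and 4.78%. AAGATGGCG, a form of the YY1 site, was present in 8 (11.6%), against 3.52% and 1.49%. At least 1 of the first 2 motifs was present in 34 genes, and both in 4.

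For each of these 3 motifs, the windows of the 3 highest genes that hold it are shown on the gene strand, with the match in capitals. GCGCCTGCGC is the match of the NRF1 motif and CTTCCGG that of the ETS motif read on the opposite strand.
Mrpl30, NRF1 (chr1:37890384-37890413): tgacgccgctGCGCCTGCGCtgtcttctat
Mrpl45, NRF1 (chr11:97315586-97315615): gaagcctcctGCGCAGGCGCagctggctct
Mrpl12, NRF1 (chr11:120484546-120484575): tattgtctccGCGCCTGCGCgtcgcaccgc
Mrpl33, ETS (chr5:31613937-31613966): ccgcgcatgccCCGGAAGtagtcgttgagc
Mrps23, ETS (chr11:88204392-88204421): tgccgcttccgCTTCCGGtaacagcccgag
Mrps21, ETS (chr3:95871478-95871507, minus strand): cgtagcttccgCTTCCGGtccgcagagacc
Mrpl42, YY1 (chr10:95501903-95501932, minus strand): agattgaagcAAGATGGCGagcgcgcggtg
Mrps24, YY1 (chr11:5707652-5707681, minus strand): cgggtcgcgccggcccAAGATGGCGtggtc
Mrps18a, YY1 (chr17:46111005-46111034): ggtgcgttccAAGATGGCGgccctcagggc
The NRF1 matches shown for Mrpl30, Mrpl45 and Mrpl12 began 83, 120 and 81 bases before the start, and Mrpl45 held further matches that began 38 bases before and 15 bases after it. All 6 matches of AAGATGGCG on the gene strand lay after the start. In 4 of these 6 (Mrpl35, Mrps18a, Mrps24 and Mrps27) the ATG within the motif is an annotated start codon. Apart from GGGCGG, shares of the other motifs were closer to those of read genes in percentage points: CCAAT was in 27 (39.1%, against 38.9%), the E box CACGTG in 5 (7.25%, against 10.6%), TATAAA in 4 (5.80%, against 6.84%), TGACGTCA in 2 (2.90%, against 3.31%), and AAAATGGCG and the ZBTB33 motif (TCTCG followed by CGAGA) in 1 each. GGGCGG was in 34 (49.3%), less than the 66.4% of other read genes, and the palindromic form of the NRF1 motif (GCGCA followed by TGCGC), counted among its matches above, was in 3 (4.35%, against 2.07%). These matches describe letters in a window and not bound sites.

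Of the 78 genes, 42 overlap another annotated gene, 13 on the same strand and 36 on the opposite strand, some on both. Mrpl47, among the lowest with 9 and 20 reads, overlaps Ndufb5 on the opposite strand, which had 295 and 423 reads, and Mrpl36 (20 and 45 reads) overlaps Ndufs6, with 228 and 319. Mrps24 overlaps Urgcp on its own strand, which had 60 and 77 reads. Whether reads were shifted between such partners was not tested.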

How the data were processed

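Long-read cDNA libraries of 2 mouse heart samples were analysed from deposited tables of transcript models. The authors deposited read counts per transcript model, whole numbers with no normalization. Per the text files deposited with the tables, reads were aligned to mm10 and compared with GENCODE M21, and the deposited annotations name TALON as their source. The aligner, read correction and versions are not given in the sources used here. Counts of all classes were summed by gene, and CPM was computed over annotated nuclear genes, leaving out mitochondrial genes and spike-ins (6380 and 7760 reads). Libraries were compared by an exact two-sided binomial test and by Fisher's exact test on isoform shares (at least 20 known reads in each library), both with Benjamini-Hochberg adjustment over all genes tested and a threshold of 0.05, and 0.5 was added to counts in log2 ratios. Share intervals are exact Clopper-Pearson (95%). Intervals cover counting error only. The limit set by a count of 0 was 3 reads (replicate 1, 6.97 CPM; replicate 2, 4.76 CPM). The tests were tested on simulated data. Intron chains were compared between libraries by coordinates. Python 3.11.15, pandas 2.3.3, NumPy 2.4.6, SciPy 1.17.1 and matplotlib 3.10.9 were used, and edgeR 4.0.16 and DESeq2 1.42.0 under R 4.3.3 gave alternative scaling factors only.

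Named genes were the 12 highest and 8 lowest by CPM, those with an unadjusted p under 0.05, the 8 with the lowest known share and the 8 with the lowest share for 1 known transcript (at least 40 reads), those with a spliced model outside the known class of at least 10 reads, the Mrps18 paralogs, 7 genes of known role and the 3 highest of each related list, of which 1 is not reported here. Genes named for overlap, neighbours or promoter motifs were picked with their values in view. The genes, lists and motifs were chosen with earlier results of these data known, and the lists therefore give no independent support. Alternatives covered the transcript classes counted, the denominator, the scaling, the read minimum and each library left out.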

Additional observations from a re-analysis of the deposited data

Results flagged for a closer look

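Reads appeared at 3 loci outside the 78 genes, above the 3 reads that a count of 0 allows. Models on the strand opposite Mrpl51 held 11 reads in replicate 2 and 2 in replicate 1. Models opposite Mrps6 held 8 reads in replicate 2 and 1 in replicate 1. The processed pseudogene Mrpl23-ps1 held 19 reads in replicate 1 and 16 in replicate 2, beside 34 and 56 reads for its parent Mrpl23. Reads of the parent and of its copy may not be separable, and this was not tested.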

How the results depend on the processing

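No paired analysis was possible because the 2 libraries form 1 group. The summed level of 8794 CPM became 6878 with known transcripts alone, 8203 without genomic models and 7835 without Mrpl30 and Mrpl24 (added after the data were seen), and ranged from 8425 to 9162 with 1 library left out. The ratio of the large-subunit to the small-subunit median, 0.999, became 0.872 with known transcripts and 0.972 without genomic models, and 0.958 to 0.971 with 1 library left out. That of bacterial-type to mitochondria-specific genes, 0.896, became 0.853 and 0.837, and 0.878 to 0.911. The median over that of all nuclear genes, 7.15, became 5.4 against protein-coding genes and 4.95 within 500 to 1500 bases.

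Scaling by ERCC spike-ins moved the log2 ratio of all member reads from −0.12 to −0.39, while the median over all genes moved from 0.01 to −0.26. Of all genes 355 then passed, against 56, and 3 of the 78 did, all lower in replicate 1: Mrpl30 (adjusted binomial p = 0.00590), Mrpl12 (0.0174) and Mrps26 (0.0379), with log2 ratios of −0.39, −0.67 and −1.07. Without genomic models the ratio was −0.034 and 1 gene passed, Mrpl30 (adjusted p = 7.11e-44), by construction, since its main block is genomic in replicate 2 alone. Under the other settings run, 0 of the 78 passed. Those lower in replicate 1 numbered 48 to 71 over all settings, the 48 among the 67 genes with at least 50 reads. The share of all genes tested that were lower there moved too. It was 70.7% under ERCC scaling, which gave the 71, and 54.0% at the minimum of 50 reads, against 49% in the main setting.

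The known share of 78.2% became 90.6% as a median over genes and 88.7% without Mrpl30, Mrpl24 and Mrpl33, and was 77.7% to 78.7% in the single libraries. The median share of the leading transcript, 99.1%, was 88.4% of all reads of the gene, and 98.8% to 100% in the single libraries. No gene of the 78 passed the isoform test at a minimum of 10 or 50 reads. The level moved by more than its SD for 38 of 78 genes with known transcripts alone, 13 with all mouse reads as the denominator and 9 without genomic models. With 2 libraries, leaving 1 out cannot move a mean by more than its SD, so that setting could not show a move.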
